A study of Rattus norvegicus with 12 samples.

Results

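The genes described here are transcription factors of the ETS, ATF and CREB, forkhead, homeobox, POU, Krüppel-like, RUNX, TEAD, T-box, bHLH and nuclear receptor families, chosen by the start of their name. Names came from the pairs of identifier and symbol in the supplement of the study. These pairs cover 1998 of the 32754 genes counted, and genes of the same families without such a pair were not analysed here. Of 44 names that matched, Foxm1 and Sox9 were set aside, 12 had fewer than 60 reads summed over the 12 libraries, and 30 were kept. Of these, 24 encode DNA-binding factors. The other 6 are a coactivator (Crebbp), binding partners or inhibitors of such factors (Paxbp1, Nfkbil1), and proteins that share the start of a name with a family (Cebpz, Rell1, Bhlhb9). Jun and Fos genes were not analysed here, and Atf3, which can pair with Jun proteins, is the member nearest to AP-1.

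RCS is a chondrocyte line derived from the rat Swarm chondrosarcoma. WT RCS and FGFR3/4KO RCS, a clone in which CRISPR/Cas9 disrupted FGFR3 and FGFR4, were kept with vehicle (5% adult bovine serum) or with FGF18 overnight, and each of the 4 groups had 3 biological replicates. The labels give 50 µg/ml of FGF18 and the study's methods give the same figure in ng/ml, so the dose is uncertain in its unit. FGFR3/4KO RCS is 1 clone, so the loss of the receptors and other properties of that clone cannot be told apart. RNA was measured by QuantSeq, which counts each polyadenylated transcript once near its 3′ end, so CPM, the reads of a gene scaled to a fixed library size, do not scale with transcript length.

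FGF ligands bind receptor tyrosine kinases at the cell surface and activate the RAS and ERK kinase cascade. ERK phosphorylates ETS proteins, and genes of the Etv subfamily are known as transcriptional read-outs of FGF signaling in many tissues. In the growth plate, FGFR3 signaling slows the proliferation of chondrocytes, while factors such as Runx proteins act in their maturation and CREB3-type factors act in the secretion of matrix.

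Promoters are shown for the 4 DNA-binding members with the largest induction by FGF18 in WT RCS, so that their sequence can be set beside their response. Each window runs from 250 bases before to 50 bases after the start of the gene, 5′ to 3′ on the strand of the gene, from RefSeq on GRCr8, and capitals mark a motif match. The window of Etv5 is chr11:92113013-92113312 on the plus strand and that of Creb3l1 is chr3:98449055-98449354 on the minus strand. The window of Foxn3 is chr6:124571991-124572290 on the minus strand and that of Hoxd9 is chr3:80007756-80008055 on the plus strand.
Etv5: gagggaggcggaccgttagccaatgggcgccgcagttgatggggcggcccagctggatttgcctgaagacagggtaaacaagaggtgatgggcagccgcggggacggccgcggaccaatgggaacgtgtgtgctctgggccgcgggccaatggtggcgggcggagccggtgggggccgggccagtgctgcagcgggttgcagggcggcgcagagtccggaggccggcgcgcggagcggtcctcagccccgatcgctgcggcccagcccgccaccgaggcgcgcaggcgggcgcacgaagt
Creb3l1: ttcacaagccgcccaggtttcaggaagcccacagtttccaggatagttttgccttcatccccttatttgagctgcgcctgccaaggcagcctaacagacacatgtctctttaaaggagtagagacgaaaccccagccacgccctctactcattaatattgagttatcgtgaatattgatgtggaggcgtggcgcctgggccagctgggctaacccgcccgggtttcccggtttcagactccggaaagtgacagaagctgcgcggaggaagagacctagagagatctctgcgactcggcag
Foxn3: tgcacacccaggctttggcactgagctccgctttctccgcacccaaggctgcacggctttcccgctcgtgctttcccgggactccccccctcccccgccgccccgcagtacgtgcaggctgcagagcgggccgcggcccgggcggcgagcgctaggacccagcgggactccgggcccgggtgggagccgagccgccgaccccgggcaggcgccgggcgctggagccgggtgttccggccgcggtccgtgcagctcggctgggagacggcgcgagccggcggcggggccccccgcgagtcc
Hoxd9: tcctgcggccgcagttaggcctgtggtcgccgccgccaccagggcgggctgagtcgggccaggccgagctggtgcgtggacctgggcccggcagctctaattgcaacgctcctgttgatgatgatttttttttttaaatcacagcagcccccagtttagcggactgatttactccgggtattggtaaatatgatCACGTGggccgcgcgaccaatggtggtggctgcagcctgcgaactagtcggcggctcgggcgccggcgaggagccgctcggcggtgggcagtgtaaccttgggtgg

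RefSeq windows were matched for 21 of 30 members. Those not matched are Atf3, Bhlhb9, Klf10, Meis2, Myc, Nfkbil1, Nr4a3, Tbx2 and Tead4. Both strands were searched for the AP-1 site TGANTCA, the CRE site TGACGTCA, the ETS site CCGGAAGT, the E-box CACGTG and the CArG box, the site of serum response factor. The Etv5, Creb3l1 and Foxn3 windows held 0 matches, and the Hoxd9 window held 1 E-box that begins 56 bases upstream of the start. Among the other members, the AP-1 site was found in Ddit3, 241 bases upstream, and the ETS site in Ddit3, 199 bases upstream, and in Atf6b, 85 bases upstream. No match overlapped another, and no member window held a CRE site or a CArG box. Of 33465 promoter windows of the same length, 7.33% held the AP-1 site, 1.83% the CRE site, 3.80% the ETS site, 6.42% the E-box and 1.64% the CArG box. The median GC content was 62.7% in the member windows and 51.7% in all windows. These matches describe letters in a window, and binding was not measured.

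Each library held 373964 to 1196647 reads on genes. On the TMM scale used for CPM here, 3 reads, the smallest amount taken as measurable, were worth 2.46 to 8.5 CPM. The 30 members took 532 to 1872 reads per library, 0.129% to 0.156% of the reads on genes. Markers of chondrocytes were detected in every group, 8 of 8 listed, and summed to 16981 to 23773 CPM per library. With FGF18 in WT RCS, 3 of the 7 that were tested passed, beside 25.7% of all genes. Prelp (log2 -0.68) and Fmod (-0.57) were lower and Mia (0.37) higher. Between genotypes with vehicle 5 of 7 passed, 3 higher and 2 lower in FGFR3/4KO, beside 14.1% of all genes. With FGF18 6 of 7 passed, 4 higher and 2 lower in FGFR3/4KO, beside 33.9% of all genes. Markers of other cell types were low, at 0 to 43.1 CPM for 5 hepatocyte genes, 17.7 to 79.4 CPM for 6 neuron and glia genes, and 17.1 to 44.4 CPM for 5 fibroblast and bone genes, and no listed marker was at 0 in all 12 libraries. Fibroblast and bone markers summed to 17.4 to 23 CPM in WT vehicle and 25.8 to 44.4 CPM in WT FGF18, which do not overlap, and to 22.7 to 29.1 and 17.1 to 25.7 CPM in FGFR3/4KO vehicle and FGF18. Among them Col1a1 had means of 1.36 CPM in WT vehicle and 11.9 CPM in WT FGF18, Pdgfra 1.12 and 8.11 CPM, and Mepe 0.786 and 1.28 CPM. Thy1 (16.6 and 11 CPM) and Lum (0.816 and 0.411 CPM) went the other way, so the list was split. Neuron and glia markers summed to 17.7 to 39.1 CPM in WT vehicle and 29.6 to 79.4 CPM in WT FGF18, which overlap, and to 22.7 to 41.4 and 34.6 to 50.7 CPM in the FGFR3/4KO groups. Hepatocyte markers summed to 2 to 16.3 CPM in WT vehicle, 9.84 to 43.1 CPM in WT FGF18, 27.6 to 36.2 CPM in FGFR3/4KO vehicle and 0 to 8.29 CPM in FGFR3/4KO FGF18. Alb, the single hepatocyte gene with enough reads to test, passed with FGF18 in WT RCS (log2 fold change 1.79, FDR 0.0235). Its FGF18 effect in FGFR3/4KO RCS minus that in WT RCS also passed (-4.35, FDR 0.000887). Between genotypes Alb passed as well, higher in FGFR3/4KO with vehicle (2.01, FDR 0.0239) and lower with FGF18 (-2.34, FDR 0.00307). The part of these marker shifts in the results below was not tested. Fgfr3 and Fgfr4, the disrupted genes, were not analysed here.

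Of the 30 members, 28 had enough reads for the test. Nr4a3 (68 reads in all) and Tbx5 (74 reads), a nuclear receptor and a T-box factor just inside the minimum of 60, were not tested, and Hes1 (47 reads) and Foxk1 (43 reads) lay just outside it. For 6 members the minimum was reached only with the reads of their highest group. These are Hoxd9 (170 of 211 reads in WT FGF18), Meis2 (45 of 103), Foxn4 (37 of 94) and Nr4a3 (22 of 68) in the same group, and Hoxd4 (47 of 97) and Tbx5 (31 of 74) in FGFR3/4KO FGF18. That their highest group stands out is in part set by the choice, so differences that involve it are a description. All comparisons come from one edgeR quasi-likelihood fit of 12 libraries, with p-values adjusted over 7378 genes to a false discovery rate (FDR) and a threshold of 0.05. The comparisons share libraries: WT vehicle, for example, enters the FGF18 effect in WT RCS, the genotype difference without FGF18 and the interaction.

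In WT RCS, FGF18 induced 7 of the 28 members tested, 6 of them without Hoxd9, and inhibited 2. The induced members were the ETS factors Etv5 and Elk3, the ATF and CREB factors Creb3l1 and Atf3, the forkhead factor Foxn3, the homeobox factor Hoxd9 and the Krüppel-like factor Klf3. The inhibited members were the TEAD factor Tead4 and Rell1, which encodes a membrane protein. The 9 members are 32.1% of those tested, beside 25.7% of all genes tested that passed. That share counts Hoxd9, which reached the minimum only with its reads in WT FGF18, so it is in part set by the choice. In the higher direction 12.9% of all genes passed and in the lower direction 12.8%. The median log2 fold change was 0.23 over the members and 0.02 over all genes. With FGF18 in FGFR3/4KO RCS, 0 of 28 members and 0 of 7378 genes (0%) passed in edgeR. An unadjusted p under 0.05 was seen there for 4 members (Etv5, Hoxd4, Ets2 and Atf6b) and for 478 genes, and DESeq2 called 0 genes and the likelihood-ratio test 3. In bulk RNA, fewer cells that express a gene and less RNA of it per cell cannot be told apart.

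**Figure D1:**
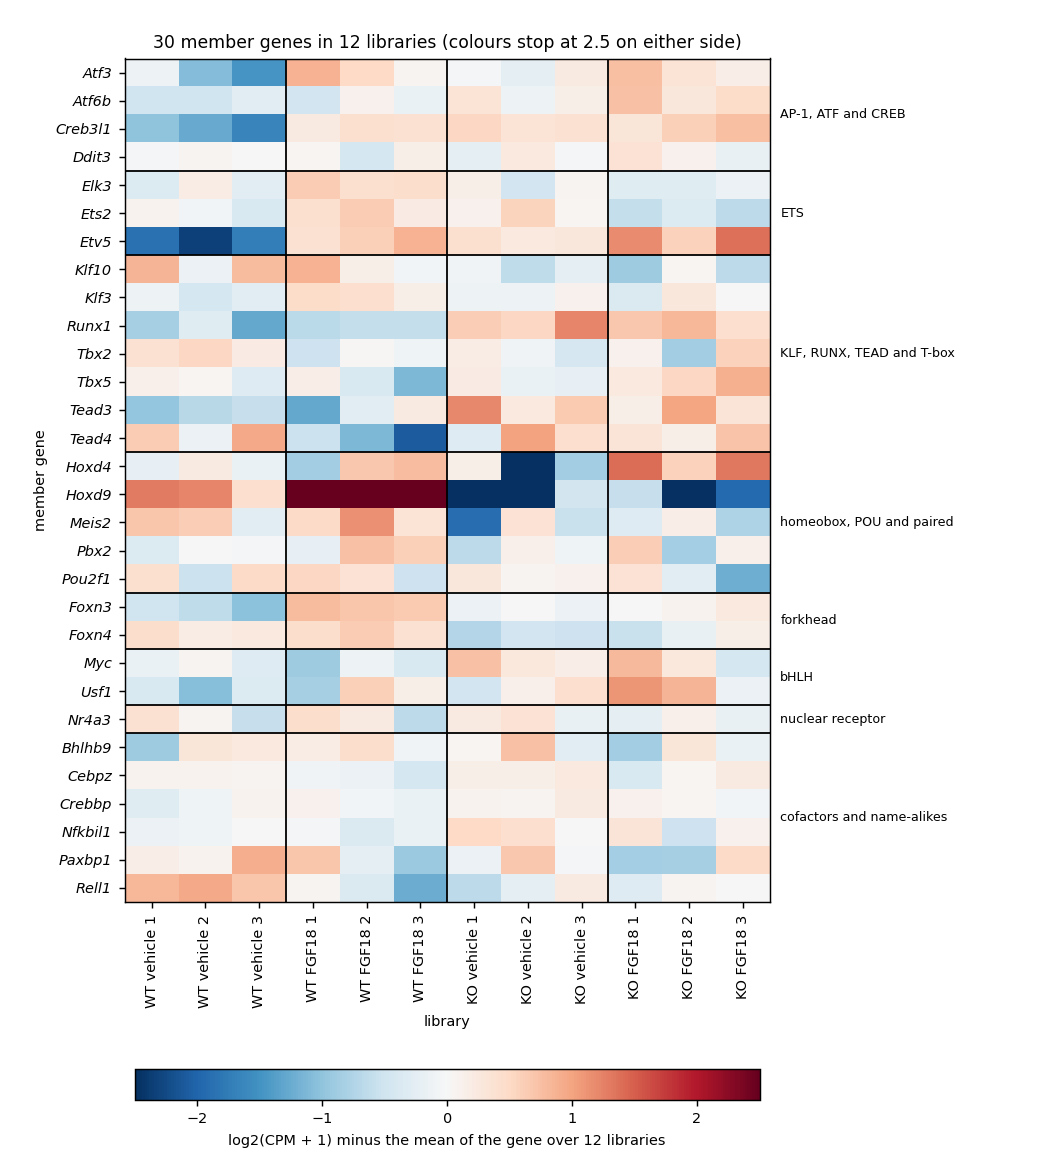
Heat map of the 30 members (rows, grouped by family) in the 12 libraries (columns, KO for FGFR3/4KO), coloured by log2(CPM + 1) minus the mean of each gene, with colours stopping at 2.5 on either side. Etv5 and Creb3l1 are low in the 3 WT vehicle libraries alone, and Hoxd9 is highest in the 3 WT FGF18 libraries.

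ETS factors recognise a GGA core and many are substrates of ERK. Etv5, of the PEA3 subfamily, stood at 11.6, 8.16 and 13 CPM in WT vehicle and at 59, 68.9 and 83.8 CPM in WT FGF18. In FGFR3/4KO vehicle it was at 59.7, 53.8 and 54.8 CPM and in FGFR3/4KO FGF18 at 104, 68.2 and 119 CPM. The WT vehicle libraries were thus lower than the other 9, and vehicle and FGF18 libraries did not overlap in either genotype. Etv5 rose 6.22-fold with FGF18 in WT RCS (log2 fold change 2.64 ± 0.29, SE, FDR 8.83e-08). In FGFR3/4KO RCS its log2 fold change was 0.78 ± 0.22, with an unadjusted p of 0.00143 in edgeR and an FDR of 0.622. FGFR3/4KO exceeded WT RCS 5.02-fold with vehicle (log2 2.33 ± 0.31, FDR 6.8e-06), and with FGF18 the difference was 0.47 ± 0.20 on the log2 scale (FDR 0.0682). Both called differences of Etv5 rest on the same 3 WT vehicle libraries, and they held when each library was left out.

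Elk3, a ternary complex factor that can repress serum response genes, was at 34.8, 50.3 and 36 CPM in WT vehicle and at 68.9, 58.3 and 60.4 CPM in WT FGF18. It was at 49, 31.2 and 46 CPM in FGFR3/4KO vehicle and at 35.6, 35.5 and 39.6 CPM in FGFR3/4KO FGF18. The WT FGF18 libraries were above all others. Elk3 rose in WT RCS by 0.64 ± 0.22 on the log2 scale (FDR 0.0285), and under FGF18 it was lower in the FGFR3/4KO clone than in the WT line (log2 -0.76 ± 0.21, FDR 0.00636). The first call was lost without WT vehicle replicate 1 (log2 0.56, FDR 0.112), WT vehicle replicate 3 (0.55, FDR 0.14) or WT FGF18 replicate 1 (0.56, FDR 0.102), and with DESeq2 (FDR 0.077), no filter (0.0647) and at least 1 CPM in 3 libraries (0.0527).

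Ets2, an ETS factor activated by ERK phosphorylation, was at 40.6, 36.7 and 29 CPM in WT vehicle and at 50.8, 60.3 and 44.4 CPM in WT FGF18. FGFR3/4KO libraries ran the other way, at 41.4, 56.7 and 39.5 CPM with vehicle and at 25, 30.1 and 24 CPM with FGF18. In neither genotype did vehicle and FGF18 libraries overlap. The log2 fold changes, 0.57 ± 0.23 in WT RCS (FDR 0.0716) and -0.73 ± 0.26 in FGFR3/4KO RCS (FDR 0.752), did not pass, while their difference did (-1.30 ± 0.35, FDR 0.0139). Under FGF18, Ets2 was lower in the clone than in WT cells (log2 -0.97 ± 0.23, FDR 0.00197). Without WT vehicle replicate 3 the difference between the genotypes in the FGF18 effect was -1.16 (FDR 0.0513).

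ATF and CREB factors are basic leucine zipper proteins, and several of them act in the stress response of the endoplasmic reticulum. Creb3l1, which is bound to that membrane, released by proteolysis and known to drive collagen secretion, was at 11.6, 9.52 and 7 CPM in WT vehicle and at 28.7, 32.5 and 32 CPM in WT FGF18. It was at 35.2, 31.2 and 31.8 CPM in FGFR3/4KO vehicle and at 30.3, 37.2 and 41.5 CPM in FGFR3/4KO FGF18. As for Etv5, WT vehicle was below the other 9 libraries, and it enters both called differences. Creb3l1 rose 3.36-fold with FGF18 in WT RCS (log2 1.75 ± 0.31, FDR 0.000112) and with vehicle was 3.56-fold above WT in FGFR3/4KO (log2 1.83 ± 0.33, FDR 0.00026). In FGFR3/4KO RCS the FGF18 effect was 0.16 ± 0.25 on the log2 scale, with a 95% confidence interval from -0.36 to 0.68.

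Atf3, an early stress and growth factor response gene, was at 24.6, 12.2 and 8.99 CPM in WT vehicle and at 50.0, 38.3 and 28.3 CPM in WT FGF18. With FGFR3/4KO it was at 26, 22.7 and 31.8 CPM with vehicle and at 46.1, 34.6 and 30.4 CPM with FGF18. The WT groups did not overlap, and the FGFR3/4KO groups did. Atf3 rose 2.69-fold in WT RCS (log2 1.43 ± 0.33, FDR 0.00174) and its change in FGFR3/4KO RCS was 0.39 ± 0.31 (FDR 0.838). The difference between these effects did not pass (log2 -1.04 ± 0.46, FDR 0.164).

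Atf6b, a membrane-bound sensor of the unfolded protein response and the most abundant of the members that passed in any comparison, differed by genotype. It was at 138, 137 and 160 CPM in WT vehicle, at 139, 209 and 174 CPM in WT FGF18, at 247, 178 and 216 CPM in FGFR3/4KO vehicle and at 326, 236 and 266 CPM in FGFR3/4KO FGF18. Within each treatment the FGFR3/4KO libraries were all above those of WT RCS, by 0.57 ± 0.17 with vehicle (FDR 0.0255) and by 0.66 ± 0.16 with FGF18 (FDR 0.00193) on the log2 scale. The vehicle call was lost without WT vehicle replicate 1 or 2 (log2 0.54 and 0.53) or without FGFR3/4KO vehicle replicate 1 or 3 (0.46 and 0.57), at an FDR of 0.079 to 0.154. Ddit3, the CHOP factor of the same response, stood at 133 to 232 CPM and did not pass, with a log2 change in WT RCS of -0.07 ± 0.17 and a 95% confidence interval from -0.42 to 0.27.

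The forkhead factor Foxn3, a transcriptional repressor linked to cell cycle checkpoints, had a narrow spread. It was at 47.8, 43.5 and 33 CPM in WT vehicle, at 118, 110 and 108 CPM in WT FGF18, at 61.3, 68 and 61.4 CPM in FGFR3/4KO vehicle and at 67.2, 72.7 and 81.1 CPM in FGFR3/4KO FGF18. The 3 WT FGF18 libraries were above all others and the 3 WT vehicle libraries below all others. Foxn3 rose 2.75-fold in WT RCS (log2 1.46 ± 0.18, FDR 7.62e-07), and its FGF18 effect in FGFR3/4KO RCS was 0.24 ± 0.19 (FDR 0.838). FGFR3/4KO was lower than WT RCS under FGF18 (log2 -0.60 ± 0.16, FDR 0.00489) and higher with vehicle (log2 0.62 ± 0.21, FDR 0.042). The vehicle call held without WT vehicle replicate 1 and was lost when any other of these 6 libraries was left out: the log2 difference was then 0.67 without WT vehicle replicate 2, 0.46 without WT vehicle replicate 3, and 0.64, 0.59 and 0.65 without FGFR3/4KO vehicle replicates 1, 2 and 3, at an FDR of 0.0718 to 0.215. It was also lost with DESeq2 (FDR 0.103), upper-quartile normalization (0.0546), no filter (0.0998), at least 1 CPM in 3 libraries (0.0803) and a replicate block (0.0616), and so held in 2 of 7 other settings. Foxn4, the other forkhead member, was low, at 4.6 to 13.4 CPM, with a mean of 10.4 ± 1.09 CPM (SD, n = 3) in WT vehicle and 5.25 ± 0.571 CPM in FGFR3/4KO vehicle, and did not pass (log2 -0.97 ± 0.51, FDR 0.223).

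Hoxd9, a homeobox factor of the posterior HoxD cluster that patterns limb cartilage, had most of its reads in WT RCS. Its reads were 12, 12 and 9 in WT vehicle and 51, 73 and 46 in WT FGF18, or 17.4, 16.3 and 8.99 CPM and 41.8, 69.8 and 56.7 CPM. In FGFR3/4KO RCS it had 0, 0 and 4 reads with vehicle and 3, 0 and 1 reads with FGF18, beside the 3 reads taken as measurable. No FGFR3/4KO library reached the lowest WT library, and in WT RCS the FGF18 libraries were all above vehicle. Hoxd9 rose with FGF18 in WT RCS by 2.01 ± 0.37 on the log2 scale (FDR 0.000161). This rise, like each ratio below that involves WT FGF18, uses the group that brought Hoxd9 over the minimum, and is a description. Summed reads, scaled to library size, were 4.06 times higher in WT FGF18 than in WT vehicle, with an exact 95% interval of 2.78 to 6.09 that covers counting error only. They were 6.52 times higher in WT vehicle than in FGFR3/4KO vehicle (2.32 to 25.3) and 41.1 times higher in WT FGF18 than in FGFR3/4KO FGF18 (15.7 to 152).

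The genotype difference of Hoxd9 passed with vehicle (log2 -2.66 ± 0.72, FDR 0.0125) and with FGF18 (log2 -5.22 ± 0.53, FDR 1.92e-08). The difference with FGF18 uses the group that brought Hoxd9 over the minimum, and is a description. The vehicle call was lost without FGFR3/4KO vehicle replicate 1 (log2 -2.10, FDR 0.0803), and without FGFR3/4KO vehicle replicate 3, the one with 4 reads, the log2 difference became -6.59. Because so few reads remained in FGFR3/4KO RCS, its FGF18 effect there could not be measured at this depth (log2 -0.55 ± 1.09, 95% confidence interval -2.78 to 1.67). Hoxd4, whose start lies 13880 bases from that of Hoxd9 in the same cluster, had 97 reads in all and did not pass in any comparison. Hoxd4 was at 5.8, 8.16 and 6 CPM in WT vehicle and at 3.28, 11.5 and 12.3 CPM in WT FGF18, which overlap. In FGFR3/4KO RCS it was at 7.66, 0 and 3.29 CPM with vehicle and at 19.8, 10.6 and 18.4 CPM with FGF18, which do not overlap, with the high group being the one that brought Hoxd4 over the minimum (log2 1.91 ± 0.60, not past the threshold). The remaining homeobox members, the Hox cofactors Pbx2 and Meis2 and the POU factor Pou2f1, ranged over the libraries from 21.3 to 65, from 1.53 to 20.1 and from 6.45 to 23.8 CPM. They did not pass either, with log2 changes in WT RCS of 0.52 ± 0.30, 0.37 ± 0.44 and 0.03 ± 0.37.

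**Figure D2:**
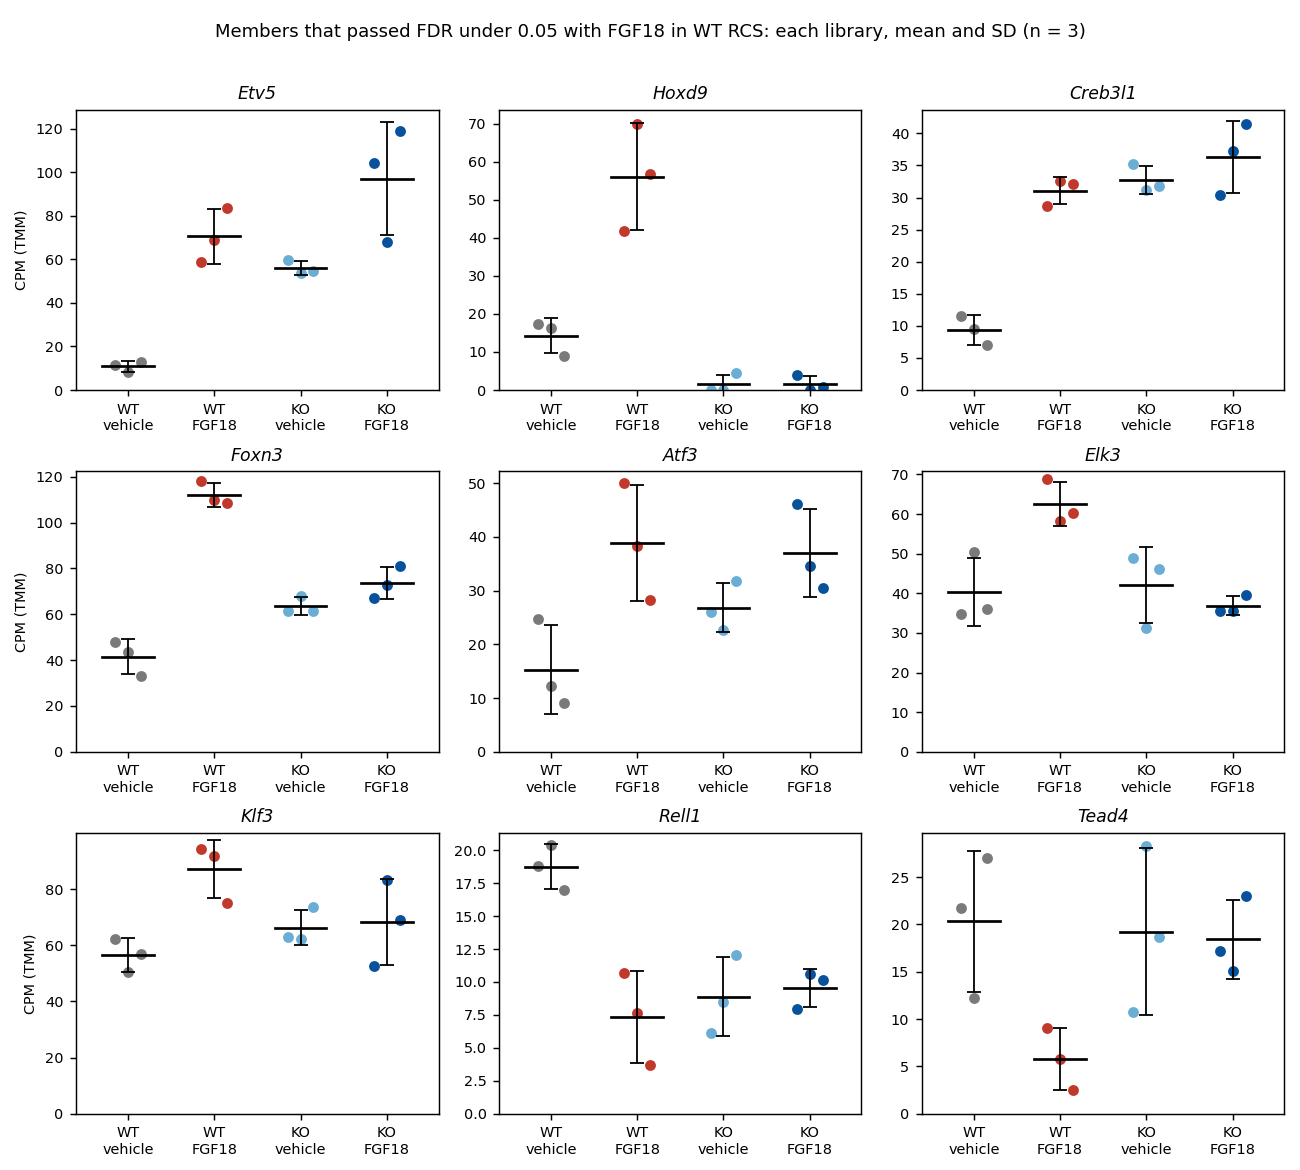
CPM after TMM scaling in each of the 12 libraries for the 9 members that passed with FGF18 in WT RCS, with points for libraries, a bar for the mean and whiskers for the SD of 3 libraries. In FGFR3/4KO vehicle, Etv5 and Creb3l1 are above all 3 WT vehicle libraries, while Hoxd9 is near 0 in FGFR3/4KO RCS.

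Krüppel-like, RUNX, TEAD and T-box members made up 7 of the 30. Klf3, a repressor that recruits CtBP proteins, was at 62.3, 50.3 and 57 CPM in WT vehicle and at 94.3, 91.8 and 75.2 CPM in WT FGF18, which do not overlap. FGFR3/4KO libraries overlapped, at 62.8, 62.3 and 73.4 CPM with vehicle and at 52.7, 83.3 and 69.1 CPM with FGF18. Klf3 rose in WT RCS by 0.63 ± 0.19 on the log2 scale (FDR 0.0141), a call lost without WT vehicle replicate 2 or 3 (log2 0.56 and 0.64) or WT FGF18 replicate 1 or 2 (0.57 and 0.58), at an FDR of 0.0518 to 0.0702. Klf10, a TGF-beta early response gene, ranged from 9.23 to 33.6 CPM and did not pass (log2 -0.18 ± 0.32 in WT RCS).

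Tead4, one of the TEAD factors through which YAP and TAZ act, was at 21.7, 12.2 and 27 CPM in WT vehicle and at 9.02, 5.74 and 2.46 CPM in WT FGF18. It was at 10.7, 28.3 and 18.6 CPM in FGFR3/4KO vehicle and at 17.1, 15.1 and 23 CPM in FGFR3/4KO FGF18. The 3 WT FGF18 libraries, with 11, 6 and 2 reads, were below all others, beside the 3 reads taken as measurable. Tead4 fell by 1.74 ± 0.44 on the log2 scale with FGF18 in WT RCS (FDR 0.00427) and under FGF18 exceeded the WT level in FGFR3/4KO (log2 1.58 ± 0.44, FDR 0.00649). Its FGF18 effect in FGFR3/4KO RCS was 0.04 ± 0.40, and the difference between the genotypes in this effect was 1.78 ± 0.60 (FDR 0.0548). Without WT vehicle replicate 3, the WT change was -1.45 (FDR 0.057).

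Runx1 and Tead3 did not pass with FGF18 in either genotype but differed between genotypes. Runx1, a factor known in blood formation and in early chondrocytes, was at 7.25, 10.9 and 5 CPM in WT vehicle, at 8.2, 8.61 and 8.62 CPM in WT FGF18, at 21.4, 19.8 and 32.9 CPM in FGFR3/4KO vehicle and at 22.4, 24.8 and 18.4 CPM in FGFR3/4KO FGF18. All FGFR3/4KO libraries were above all WT libraries, 3.42-fold with vehicle (log2 1.77 ± 0.40, FDR 0.00262) and 2.56-fold with FGF18 (log2 1.36 ± 0.36, FDR 0.00404). The vehicle call became 1.46 (FDR 0.0544) without FGFR3/4KO vehicle replicate 3. The FGF18 effect on Runx1 was 0.17 ± 0.45 for WT RCS, against -0.24 ± 0.32 for the FGFR3/4KO clone.

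Tead3 was at 4.35, 5.44 and 6 CPM in WT vehicle, at 3.28, 7.65 and 11.1 CPM in WT FGF18, at 23, 11.3 and 15.3 CPM in FGFR3/4KO vehicle and at 10.5, 19.5 and 12 CPM in FGFR3/4KO FGF18. With vehicle the genotypes did not overlap, and under FGF18 they did. With vehicle, FGFR3/4KO had more Tead3 than WT (log2 1.65 ± 0.51, FDR 0.0277), and under FGF18 the difference was 1.03 ± 0.44 (FDR 0.0736). It rests on 110 reads in all, and the vehicle call was lost with DESeq2 (FDR 0.0593) and without WT vehicle replicate 1, 2 or 3 (log2 1.55, 1.67 and 1.77) or FGFR3/4KO vehicle replicate 1 or 3 (1.37 and 1.76), at an FDR of 0.0658 to 0.162. The T-box repressor Tbx2 ranged from 6.2 to 18.4 CPM and had a log2 change of -0.58 ± 0.40 in WT RCS (FDR 0.32), the lowest in that comparison of the members that passed in none.

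**Figure D3:**
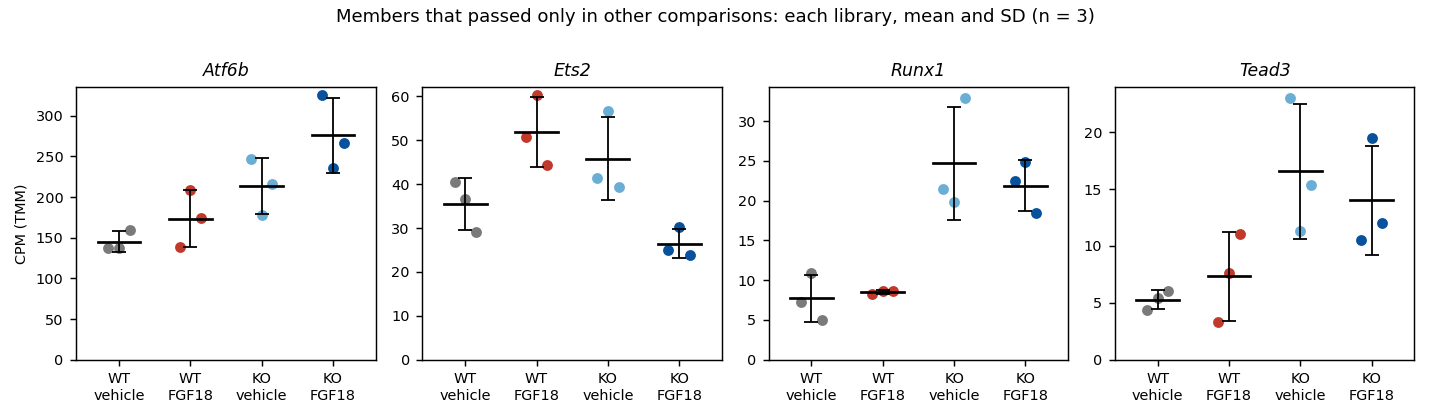
CPM after TMM scaling in each library for the 4 members that passed in other comparisons and not for the FGF18 effect in WT RCS, with points for libraries, a bar for the mean and whiskers for the SD of 3 libraries. Runx1 is higher in all 6 FGFR3/4KO libraries than in the 6 WT libraries, and the Ets2 libraries with FGF18 are above vehicle in WT RCS and below it in FGFR3/4KO RCS.

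The bHLH members, Myc and Usf1, were low and did not pass in any comparison. Myc, a driver of growth and proliferation, ranged from 5.74 to 21.1 CPM and had a mean of 10.5 ± 1.64 CPM in WT vehicle, 8.3 ± 2.41 in WT FGF18, 15.7 ± 3.65 in FGFR3/4KO vehicle and 14.5 ± 6.41 in FGFR3/4KO FGF18 (SD, n = 3). Its log2 change in WT RCS was -0.34 ± 0.45, with a 95% confidence interval from -1.27 to 0.60 that leaves room for a change of either sign. Usf1, which binds the E-box, ranged from 6.8 to 34.3 CPM and had the highest log2 change with FGF18 in WT RCS of the members that passed in no comparison (0.65 ± 0.45, FDR 0.322).

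Among the cofactors and proteins named like a family, 1 of 6 passed with FGF18 in WT RCS, 16.7% beside 25.7% of all genes. Rell1, of the RELT receptor family, was at 18.8, 20.4 and 17 CPM in WT vehicle and at 10.7, 7.65 and 3.7 CPM in WT FGF18. It was at 6.13, 8.5 and 12.1 CPM in FGFR3/4KO vehicle and at 7.91, 10.6 and 10.1 CPM in FGFR3/4KO FGF18, so WT vehicle was above the other 9 libraries. Rell1 fell by 1.26 ± 0.40 on the log2 scale in WT RCS (FDR 0.021), and this call was lost with DESeq2 (FDR 0.0574), without WT vehicle replicate 1 or 2 (log2 -1.26 and -1.20), and without WT FGF18 replicate 2 or 3 (-1.27 and -1.01), at an FDR of 0.0526 to 0.081. Cebpz and Crebbp were abundant, at 177 to 285 and 145 to 208 CPM, with means of 255 ± 2.61 and 167 ± 22.5 CPM in WT vehicle, and did not pass. Their log2 changes were -0.30 ± 0.15 (FDR 0.15) and 0.06 ± 0.14 (95% confidence interval -0.24 to 0.35). Nfkbil1, Paxbp1 and Bhlhb9 ranged from 33.7 to 68.9, from 4.93 to 20 and from 13 to 42.5 CPM and had log2 changes of -0.10 ± 0.24, -0.43 ± 0.46 and 0.20 ± 0.33 in WT RCS.

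Whether the response depends on genotype was tested by the interaction, the FGF18 effect in FGFR3/4KO RCS minus that in WT RCS on the log2 scale. Of 28 members, 4 had a negative interaction that passed, Etv5, Creb3l1, Ets2 and Foxn3, and 0 a positive one in edgeR. Positive interactions of Tead4 and Rell1 had an unadjusted p of 0.00623 and 0.0397, and DESeq2 called 0 positive members and the likelihood-ratio test 1. They are 14.3% of the members tested, beside 10.9% of all genes (4.96% negative and 5.91% positive). The interaction was -1.86 ± 0.38 for Etv5 (FDR 0.00126), -1.59 ± 0.41 for Creb3l1 (FDR 0.0106) and -1.22 ± 0.26 for Foxn3 (FDR 0.00224). Of the 7 members induced in WT RCS, the interaction passed for 3, Etv5, Creb3l1 and Foxn3. For Elk3 it was -0.88 ± 0.32 (FDR 0.0786), for Klf3 -0.59 ± 0.27 (FDR 0.194) and for Hoxd9 -2.56 ± 1.26 (FDR 0.224). Without WT vehicle replicate 3 the interaction of Creb3l1 was -1.38 (FDR 0.0547).

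**Figure D4:**
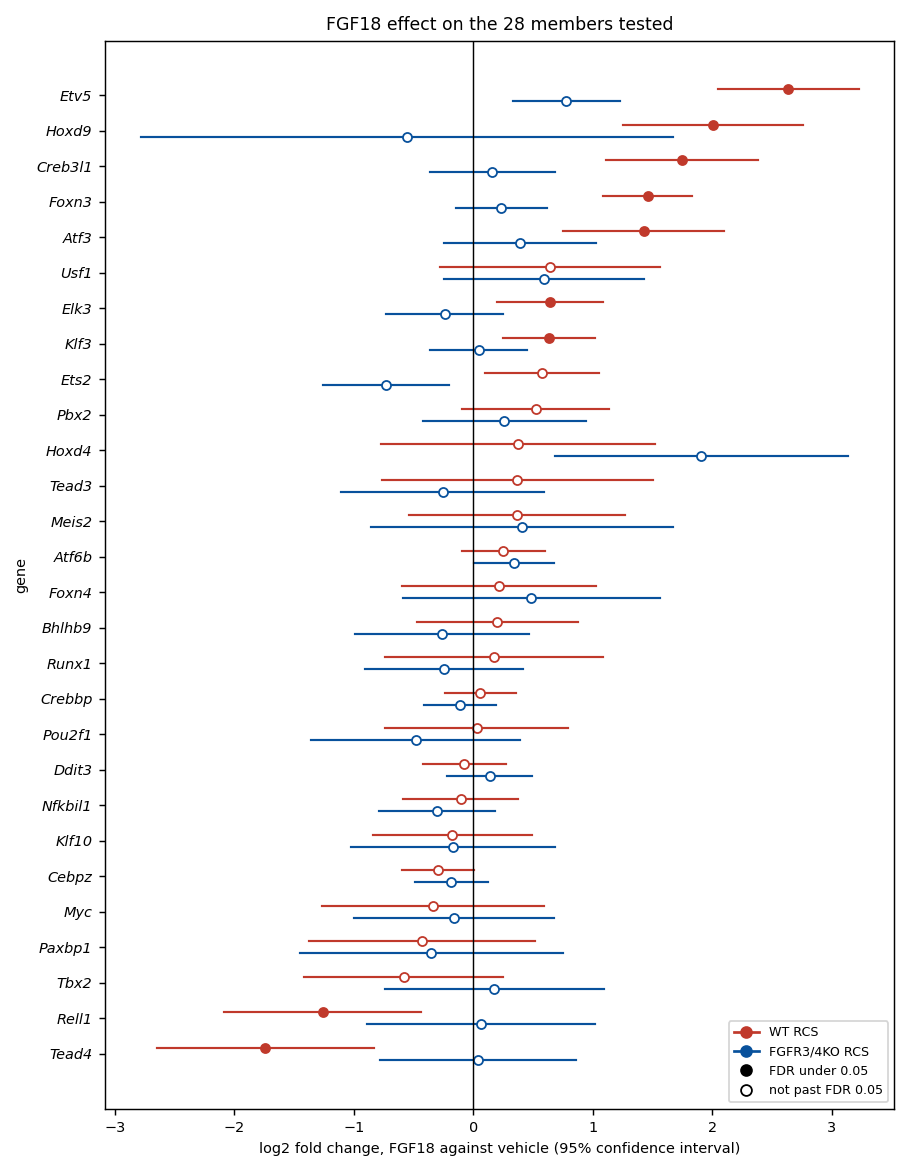
Log2 fold change with FGF18 (points) and its 95% confidence interval (lines) for the 28 members tested, in WT RCS (red) and FGFR3/4KO RCS (blue), with filled points past an FDR of 0.05. The filled points, 7 to the right of 0 and 2 to the left, all belong to WT RCS.

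Without FGF18, 7 of 28 members differed between the genotypes, 6 higher in FGFR3/4KO (Etv5, Creb3l1, Runx1, Tead3, Foxn3 and Atf6b) and 1 lower (Hoxd9). They are 25% of the members tested, beside 14.1% of all genes (8% higher and 6.07% lower). With FGF18, 7 of 28 differed as well, 3 higher in FGFR3/4KO (Tead4, Runx1 and Atf6b) and 4 lower (Hoxd9, Ets2, Elk3 and Foxn3), beside 33.9% of all genes (16.9% higher and 17% lower). Hoxd9 is counted here, though it reached the minimum only with its reads in WT FGF18. Hoxd9 was lower and Runx1 and Atf6b were higher in FGFR3/4KO with either treatment. Foxn3 was lower with FGF18, a call that held in all 7 other settings, and its higher level with vehicle held in 2 of 7. Etv5 and Creb3l1, which were higher in FGFR3/4KO with vehicle, had log2 differences under FGF18 of 0.47 (95% confidence interval 0.06 to 0.87) and 0.24 (-0.24 to 0.73).

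The 15 tested members that passed in no comparison had log2 changes in WT RCS from -0.58 (Tbx2) to 0.65 (Usf1), a lowest FDR of 0.15 and 0 unadjusted p-values under 0.05 in edgeR. Of the 2 untested members, Nr4a3 ranged from 3.7 to 9.02 CPM and Tbx5 from 2.46 to 12.9 CPM over the 12 libraries. Among all 30 members, Cebpz, Atf6b, Crebbp and Ddit3 held the most reads, 2521, 2107, 1875 and 1866.

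Other genes of the same pathways were described from lists chosen alongside the members, with earlier results of these data known. Their shares beside all genes are thus in part set by the choice and are a description. Of 19 growth factor response and feedback genes, 12 were tested, and with FGF18 in WT RCS 5 rose and 1 fell, 50% of the 12 beside 25.7% of all genes, with a median log2 change of 0.85 beside 0.02 for all genes. The largest changes that passed were those of Phlda1 (3.18 ± 0.15), an early response gene, Gadd45a (1.67 ± 0.20), a growth arrest gene, Btg1 (1.61 ± 0.15), an antiproliferative cofactor, and Trib2 (0.96 ± 0.33), a pseudokinase. These are all rises. The lowest log2 change of the 12 was -0.55, and Cdkn1a had a lower mean in WT FGF18 (179 CPM) than in WT vehicle (264 CPM). In FGFR3/4KO RCS 0 of the 12 passed in edgeR, with 1 at an unadjusted p under 0.05, beside 0% of all genes. A negative interaction passed for 3 (25% of the 12), beside 4.96% of all genes. With vehicle 0 of the 12 differed between genotypes in edgeR, with 3 at an unadjusted p under 0.05, beside 14.1% of all genes. Under FGF18 1 was higher and 9 were lower in FGFR3/4KO, beside 16.9% and 17% of all genes.

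**Figure D5:**
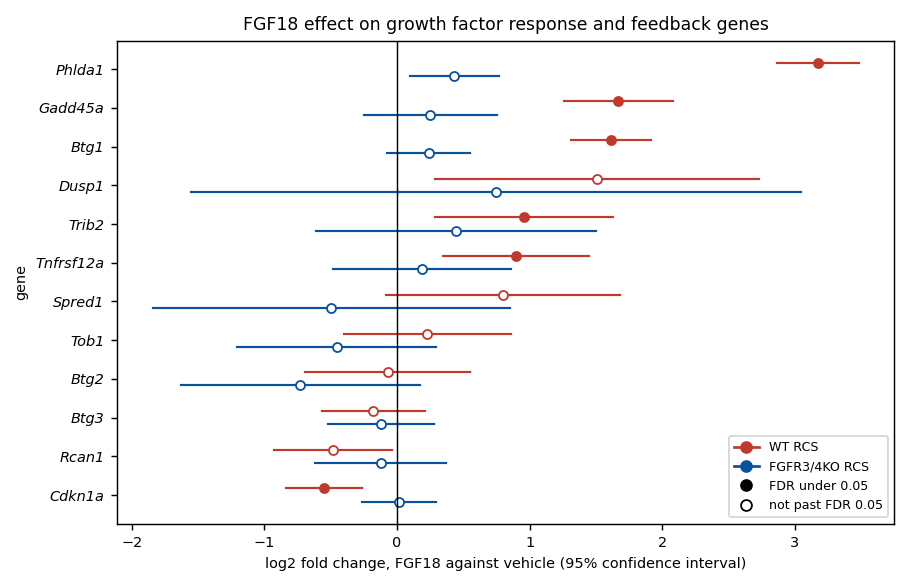
Log2 fold change with FGF18 (points) and its 95% confidence interval (lines) for the 12 growth factor response and feedback genes tested, in WT RCS (red) and FGFR3/4KO RCS (blue), with filled points past an FDR of 0.05. The 5 genes that rose and the 1 that fell passed in WT RCS, and 0 passed in FGFR3/4KO RCS.

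Of 18 genes of the unfolded protein response, the process to which Creb3l1, Atf6b, Atf3 and Ddit3 are linked, 17 were tested. With FGF18 in WT RCS, Sdf2l1, a chaperone cofactor, rose (log2 0.51 ± 0.15, FDR 0.0102), and the retrieval receptor Kdelr2 (-0.75 ± 0.22, FDR 0.0115) and the co-chaperone Dnajb11 (-0.42 ± 0.14, FDR 0.0284) fell. These are 17.6% of the 17 tested, beside 25.7% of all genes. The median was -0.02, and 0 of 17 passed in FGFR3/4KO RCS, with 1 at an unadjusted p under 0.05. Of 19 coactivators and corepressors, 10 were tested and 0 passed in WT RCS (0% of the 10), with 2 at an unadjusted p under 0.05 in edgeR. Of 36 DNA-binding factors that are not members, among them Foxm1 and Sox9, 24 were tested, 3 rose and 2 fell in WT RCS, 20.8% of the 24 and below the share over all genes. Upward were Bcl6 (1.60 ± 0.43), a repressor, Hlx (0.73 ± 0.25), a homeobox factor, and Nfe2l2 (0.70 ± 0.22), the oxidative stress factor. Downward were Foxm1 (-1.86 ± 0.19), a mitotic factor, and Yy1 (-0.70), named after its value was seen. Yy1 was at 94.2, 92.5 and 93.9 CPM in WT vehicle and at 51.6, 92.8 and 24.6 CPM in WT FGF18, which overlap. In FGFR3/4KO RCS 0 of 24 passed in edgeR, with 2 at an unadjusted p under 0.05.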

How the data were processed

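QuantSeq 3′ libraries of 4 groups (WT vehicle, WT FGF18, FGFR3/4KO vehicle and FGFR3/4KO FGF18, 3 biological replicates each) were read as 75 bp single ends from 100 ng of RNA. Trim Galore, STAR with the rn6 build and htseq-count were used by the authors. The deposited values are raw counts of reads on each gene. The methods name Gencode v19, while the identifiers are rat genes of Ensembl. Tool versions are not given in the sources used here. Of the reads in each file, 12.5% to 18.8% were counted on genes, and 81.2% to 87.5% were in classes without a gene, mostly low mapping quality, and stayed out of library sizes.

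Groups were compared with edgeR 4.0.16 under R 4.3.3 (TMM normalization, filterByExpr with a minimum count of 10 and a total of 15, which left 7378 of 32754 genes, one quasi-likelihood fit with a mean per group, Benjamini-Hochberg adjustment, threshold 0.05). Standard errors were derived from the log2 fold change and F. CPM values use TMM library sizes, and means are given with the SD. The test was checked on simulated counts. Symbols came from the 1998 identifier pairs given by the study, whose other columns hold the authors' CPM values, fold changes and FDR and were not used. The members, the lists and the tests were chosen with earlier results of these data known. Members that passed in any of the 5 comparisons are given in every library, and the others by their range, with Hoxd4 given in every library after its values were seen. Members nearest to 60 reads are named once. Alternatives were the likelihood-ratio test, DESeq2 1.42.0, upper-quartile normalization, no filter, at least 1 CPM in 3 libraries, a fit of just the groups compared, a block for replicate numbers, and leaving out each library. Read intervals and the 3-read floor cover counting error only, since reads carry no molecular identifiers.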

Additional observations from a re-analysis of the deposited data

Results flagged for a closer look

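The FGF18 effect differed between FGFR3/4KO RCS and WT RCS, by the interaction test in edgeR, for 4 members. The interaction, as a log2 difference, was -1.86 for Etv5, -1.59 for Creb3l1, -1.30 for Ets2 and -1.22 for Foxn3, each negative. In Etv5, Creb3l1 and Foxn3, FGFR3/4KO vehicle libraries were above WT vehicle libraries, for Foxn3 with a call that held in 2 of 7 other settings. In Foxn3, WT FGF18 was also above all FGFR3/4KO libraries. In Ets2 the log2 changes of the 2 genotypes had opposite signs, of which neither passed by itself. With 3 libraries in each group, no group was large enough to be examined for single libraries that stand apart.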

How the results depend on the processing

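Of the called values of named members, 329 kept their direction and side of the threshold under an alternative, 40 kept the direction but no longer passed, and 0 turned. Members higher with FGF18 in WT RCS numbered 6 in place of 7 with DESeq2, no filter and at least 1 CPM in 3 libraries, each without Elk3, and members lower numbered 1 with DESeq2 in place of 2. Members higher in FGFR3/4KO with vehicle numbered 4 with DESeq2 in place of 6, without Foxn3 and Tead3, and 5 with upper-quartile normalization, no filter, at least 1 CPM in 3 libraries or only the groups compared. Members with a positive interaction numbered 1 in place of 0 with the likelihood-ratio test, with no filter and with at least 1 CPM in 3 libraries; with no filter it was Tead4 (log2 1.82, FDR 0.0323). Members lower in FGFR3/4KO with vehicle numbered 0 in place of 1 when only the groups compared were fitted, where 20 members were tested and Hoxd9 was not among them. With each library left out in turn, members higher and lower with FGF18 numbered 5 to 7 and 1 to 2 for WT RCS, and 0 for FGFR3/4KO RCS. Positive and negative interactions numbered 0 to 1 and 2 to 5, the 2 without WT vehicle replicate 3. Members higher and lower in FGFR3/4KO numbered 2 to 5 and 0 to 1 with vehicle, and 3 to 5 and 4 to 5 with FGF18. The fit with a replicate block called 7 and 2 members in WT RCS, 4 negative interactions, and 5 higher and 1 lower with vehicle, where Foxn3 was lost (log2 0.63, FDR 0.0616). The shared numbers showed no pairing, since deviations of same-numbered libraries had a mean correlation of -0.03 over 18 pairs, with 0 over 0.1. DESeq2 gave no adjusted p for 7 members in the interaction. Over all genes, FGF18 in FGFR3/4KO RCS changed 0 genes in the fit used, 3 with the likelihood-ratio test, 2 with only the groups compared, 1 with at least 1 CPM in 3 libraries, and 9 higher and 11 lower with no filter. Genes lower in FGFR3/4KO with vehicle numbered 448, 685 with only the groups compared and 258 to 353 with a library left out. The cause of these shifts was not tested. Members with few reads (Tead3, Hoxd4, Nr4a3, Tbx5) lie near the 3-read floor in several libraries, so that changes in them were not detectable at this depth unless large. Tead4 had 2 reads and Rell1 3 reads in WT FGF18 replicate 3, so their falls with FGF18 rest in part on a library near this floor.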
